A study of Arabidopsis thaliana with 84 samples.

Results

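The loci described here are 100 Arabidopsis genes that had no symbol of their own in the platform annotation and whose mean level in nitrate exceeded that in KCl in each of 5 sorted root cell populations. They were taken from 11933 candidate probe sets, those with 1 gene and a bare locus identifier, among the 22810 probe sets of the Affymetrix ATH1 array. In 391 candidates (3.28%) the mean of 6 nitrate arrays exceeded the mean of 3 KCl arrays in all 5 populations. After 8 loci named in the rule had been left out, 389 remained, and the 100 with the largest mean difference over the 5 populations were kept. These differences chose the loci and are given as a description with no test. Apart from a comparison between kinds of nitrate treatment in the sorted cells, tests compared arrays that the choice did not use. In sorted cells the spread in the main fits came from all 54 sorted arrays, those of the choice included.

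All plants were of the Col-0 background, 12 days old, grown hydroponically with ammonium succinate as the sole source of nitrogen, and treated at dawn. The series holds 84 arrays, 3 biological replicates in each of 28 groups. Cells were sorted from the lateral root cap (LRC), the stele (Stele), the epidermis with the cortex (EpiC), the endodermis with the pericycle (EndoP) and the pericycle alone (Peri). They came from roots given 5 mM KCl or 5 mM KNO3 for 2 h, the KNO3 being either withheld from the protoplasting solution (transitory) or kept in it (continuous). Peri cells also came from roots given 1 mM methionine sulfoximine (MSX) with KCl, with KNO3, or with KNO3 and 5 mM glutamine (Gln). All groups with MSX are labelled continuous, so their nitrate difference holds no transitory arrays, unlike the differences that chose the loci. Unsorted protoplasts and whole roots incubated in the solution without enzymes had KCl, transitory and continuous KNO3, and whole roots frozen at once had KCl and KNO3 for 2 h or 3.5 h. The reporter lines used for sorting are not given in the sources used here. In these bulk samples a change in the share of cells of a type and a change in RNA per cell cannot be told apart.

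Nitrate is both the main nitrogen source of most soil-grown plants and a signal. Roots that meet it raise genes for its uptake and reduction, genes of the oxidative pentose phosphate pathway, which supplies reducing power for nitrite reduction in root plastids, and GARP-family transcription factors that restrain the response. MSX inhibits glutamine synthetase, so with it nitrate can be taken up and sensed while its assimilation into glutamine is blocked.

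All 100 loci were found in the RefSeq gene table, 91 as protein-coding genes and 9 as pseudogenes, beside 7.73% pseudogenes among the candidates. Of the loci on a list of 19 nitrate regulators, AT3G25790 (HHO1, a GARP-family factor) was a member. Of 10 genes of reductant supply, AT5G41670 (PGD3) and AT1G64190 (PGD1), both encoding 6-phosphogluconate dehydrogenase, an enzyme of the pathway just named, were members. Only 3 genes of each of these lists could be named on the array under the rule of 1 gene a probe set. The others were AT1G68670 and AT1G25550 among the regulators and AT3G02360 among the reductant genes. AT1G68670 and AT1G25550 had mean differences of 0.81 and 0.80 but were lower in Peri, at -0.86 and -0.43, and so fell outside the rule. AT3G02360 stood at -0.37. On a list of 6 cytokinin genes ARR15 (AT1G74890), a response regulator, stood at -0.06. No gene of the lists of nitrate transport, of nitrate and nitrite reduction or of ammonium assimilation could be named, and none of the other 97 loci is given a name or role here.

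Of the 3 loci proposed as markers of the group, AT1G49500 and AT5G19970 were members and AT5G65660 was not. The nitrate difference of AT5G65660 was 2.02 in LRC, 1.64 in EpiC, 1.61 in EndoP and 2.23 in Stele, but -0.29 in Peri. Its Peri KCl arrays read 11.03, 9.47 and 10.22 on the log2 scale, its transitory arrays 8.96, 10.56 and 11.46, and its continuous arrays 11.25, 9.46 and 8.01. The Peri groups overlapped throughout, and with the values as deposited its Peri difference was 0.15. In unsorted protoplasts its difference was 1.59 (SE 0.44, limma adjusted p = 0.496). At the other end of the ranking, AT4G17480 was the last locus taken (mean difference 0.3492) and AT3G48600 the first left outside (0.3490).

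Some arrays stood apart or went against their labels. On the one-cycle arrays (whole roots, incubated roots, protoplasts) 4 of 30 correlated with the rest at a median of 0.293 to 0.561, against 0.740 to 0.927 for the other 26. They were whole roots at 2 h in KCl, replicate 1, incubated roots in KCl, replicates 1 and 2, and incubated roots in continuous KNO3, replicate 2, and were left out of the fits. Among the two-cycle (sorted) arrays the lowest was EndoP in transitory KNO3, replicate 1, at 0.532, followed by LRC in continuous KNO3, replicate 1, at 0.654. In Peri, the median of the 8 leading loci, each set against its own median over the sorted arrays and relative to all candidates, was 0.41 in the array labelled KCl, replicate 1, and -1.15 in both other KCl arrays. It was -1.40 in the array labelled transitory, replicate 1, and -1.46 in that labelled continuous, replicate 3, against 0.32 to 1.18 in the other 4 nitrate arrays. These 3 arrays thus went against their labels in most leading loci, the exceptions being AT1G49500, AT2G48080 and AT3G58610 in the nitrate arrays. Array signal was 176 to 178 in the Peri KCl arrays and 179 to 373 in the 6 Peri nitrate arrays. Of 10 cell type markers that could be measured in KCl, RCPG (AT1G65570), a polygalacturonase of the root cap, was highest in LRC at 8.02, against 5.41 to 6.14 in the other populations. EXPA7 (AT1G12560), an expansin of root hairs, read 9.29 in EndoP and 9.27 in Stele but 6.56 in EpiC, so it did not follow the population names. AT1G62500 (CO2), a cortex gene, was lowest in EpiC, at 5.85, against 5.89 to 6.58 in the other populations. JKD (AT5G03150) was highest in EpiC, at 7.495 against 6.504 to 7.33. LHW (AT2G27230) was also highest there, at 10.39 against 9.31 to 10.33. GSO1 (AT4G20140) was highest in Peri, at 8.84 against 6.34 to 8.45. For CO2, JKD, LHW and GSO1 the single arrays of these populations overlapped. Of 5 green-shoot genes on the marker list 4 could be measured, and all 4 were lower in nitrate than in KCl in EpiC, LRC and Peri and none in EndoP and Stele. In EpiC every nitrate array lay below every KCl array in all 4. The log2 of their summed levels there was 11.19 to 12.05 in KCl and 8.58 to 9.996 in nitrate, whereas it overlapped between treatments in the other 4 populations. Their part in the nitrate differences of the EpiC cells was not tested.

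**Figure D1:**
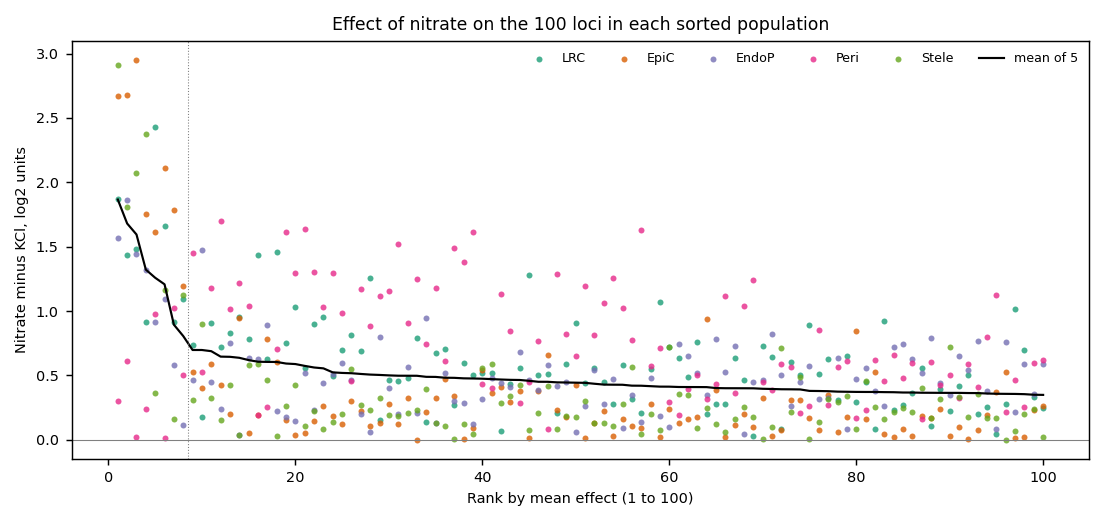
Nitrate minus KCl in log2 units (y axis) for the 100 loci in order of their mean difference (x axis), 1 point for each sorted population and a line for the mean of 5. The mean falls from 1.87 at rank 1 to 0.81 at rank 8, and from 0.70 at rank 9 to 0.35 at rank 100, where Peri points are often the highest.

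The ranking fell into a steep part and a long flat part. Ranks 1 to 8 had mean differences above 0.8 and ranks 9 to 100 between 0.35 and 0.70, with a median of 0.43. This division was made after the values were seen and serves only to describe them. The median difference of the 8 leading loci was 1.46 in LRC, 1.95 in EpiC, 1.21 in EndoP, 0.40 in Peri and 1.48 in Stele. In the 92 others it was 0.52, 0.18, 0.45, 0.66 and 0.21, so that Peri held the smallest median of the first group and the largest of the second. Over all candidates the standard deviation of the differences was 0.79 in Peri, 0.55 in Stele, 0.42 in LRC, 0.33 in EndoP and 0.29 in EpiC. Peri gave the largest of the 5 differences for 46 of the 100 loci, and EpiC the smallest for 42. Such counts are not given for the candidates, so nothing is read from them.

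AT5G41670 (PGD3) led the ranking with a mean difference of 1.87. In LRC its KCl arrays read 9.04, 9.47 and 10.11 and its 6 nitrate arrays 10.96 to 11.94, with a median of 11.35. In EpiC KCl gave 8.60, 8.88 and 9.57, and nitrate 11.30 to 12.03, with a median of 11.74. In Stele KCl gave 9.88, 9.37 and 8.22, and nitrate 11.60 to 12.77, with a median of 12.00. In these 3 populations every nitrate array lay above every KCl array. In EndoP KCl gave 9.86, 8.83 and 10.18, and 5 of the 6 nitrate arrays lay at 11.11 to 12.49, while transitory replicate 1, the array of lowest correlation, read 7.25. In Peri KCl gave 12.17, 9.70 and 10.17, transitory nitrate 8.36, 12.93 and 11.23, and continuous nitrate 12.46, 11.90 and 9.01. The Peri groups overlapped, with a difference of 0.30, which ranged from -0.19 to 1.05 when 1 of the 9 Peri arrays was left out at a time and was 1.05 without KCl replicate 1.

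AT1G64190 (PGD1), a second enzyme of that step, had a mean difference of 1.32. Its nitrate arrays lay above its KCl arrays in LRC (10.97 to 11.71 against 10.17 to 10.80), in EpiC (11.75 to 12.21 against 9.99 to 10.50) and in Stele (11.80 to 12.69 against 9.13 to 10.48). The exceptions were those of AT5G41670. In EndoP transitory replicate 1 read 8.67, with the other 5 nitrate arrays at 11.56 to 12.67. In Peri KCl replicate 1 read 12.10, above the 10.57 and 11.07 of the other KCl arrays. Transitory replicate 1 and continuous replicate 3 read 9.52 and 9.75, and the other nitrate arrays 11.79 to 13.12.

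AT3G25790 (HHO1) had a mean difference of 1.68 and differed in level between populations. In LRC its KCl arrays already read 8.99, 9.21 and 8.78, and its nitrate arrays 9.81 to 10.82. In EpiC KCl gave 5.33, 6.43 and 5.92, and nitrate 7.98 to 9.46. These were the populations in which its arrays did not overlap. In EndoP KCl gave 6.28, 5.37 and 5.22, and nitrate 5.93 to 8.27, with transitory replicate 1 the lowest. In Stele KCl replicate 1, at 7.06, exceeded the 5.18 and 4.79 of the others and lay within the nitrate range of 6.61 to 9.46.

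AT1G16170 showed its largest difference in EpiC, at 2.95, and its smallest in Peri, at 0.02. The EpiC KCl arrays read 6.77, 7.38 and 6.40, and the nitrate arrays 9.15 to 10.30. Its arrays were also apart in LRC, where KCl gave 8.06, 8.67 and 8.13 and nitrate 8.69 to 10.21, and in Stele, where KCl gave 7.31, 6.78 and 6.89 and nitrate 8.33 to 10.13. In Peri KCl gave 8.92, 6.99 and 6.90, transitory nitrate ran up to 10.31, and transitory replicate 1 (6.43) and continuous replicate 3 lay under every KCl array.

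AT1G49500 was the locus with the largest difference in LRC, at 2.43. The LRC KCl arrays read 8.03, 7.68 and 7.62, and the nitrate arrays 9.81 to 11.19. Its difference was 1.61 in EpiC and 0.91 in EndoP, with arrays apart in both (in EndoP with transitory replicate 1 the highest, at 11.56). In Stele the difference was 0.36, and nitrate arrays of 8.46 to 10.12 overlapped KCl arrays of 7.88, 8.72 and 8.98. AT5G19970 separated nitrate from KCl in 4 populations. Its KCl arrays read 6.58, 6.09 and 6.46 in LRC, 6.25, 6.21 and 6.57 in EpiC, 6.16, 5.91 and 5.91 in EndoP and 5.95, 5.56 and 5.33 in Stele. Its nitrate arrays read 7.46 to 8.94, 8.11 to 8.79, 6.76 to 7.35 and 6.61 to 7.14 in the same populations. It did so in EndoP with transitory replicate 1 included, at 7.07. In Peri its difference was 0.02, with KCl arrays of 8.57, 6.81 and 6.74 within the nitrate range of 6.03 to 8.90.

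AT2G48080 and AT3G58610 closed the leading loci, at 0.89 and 0.81. AT2G48080 had its largest difference in EpiC, 1.79, where KCl read 6.83, 6.53 and 6.74 and nitrate 7.97 to 9.01, and 0.16 in Stele, where the arrays overlapped. AT3G58610 stood at high levels in every population, with KCl arrays of 10.99, 11.01 and 10.67 and nitrate arrays of 11.61 to 12.27 in LRC. In EndoP its KCl arrays agreed within 0.05, at 11.12, 11.16 and 11.12, and 5 nitrate arrays lay above them at 11.51 to 12.23, while transitory replicate 1 read 8.44.

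**Figure D2:**
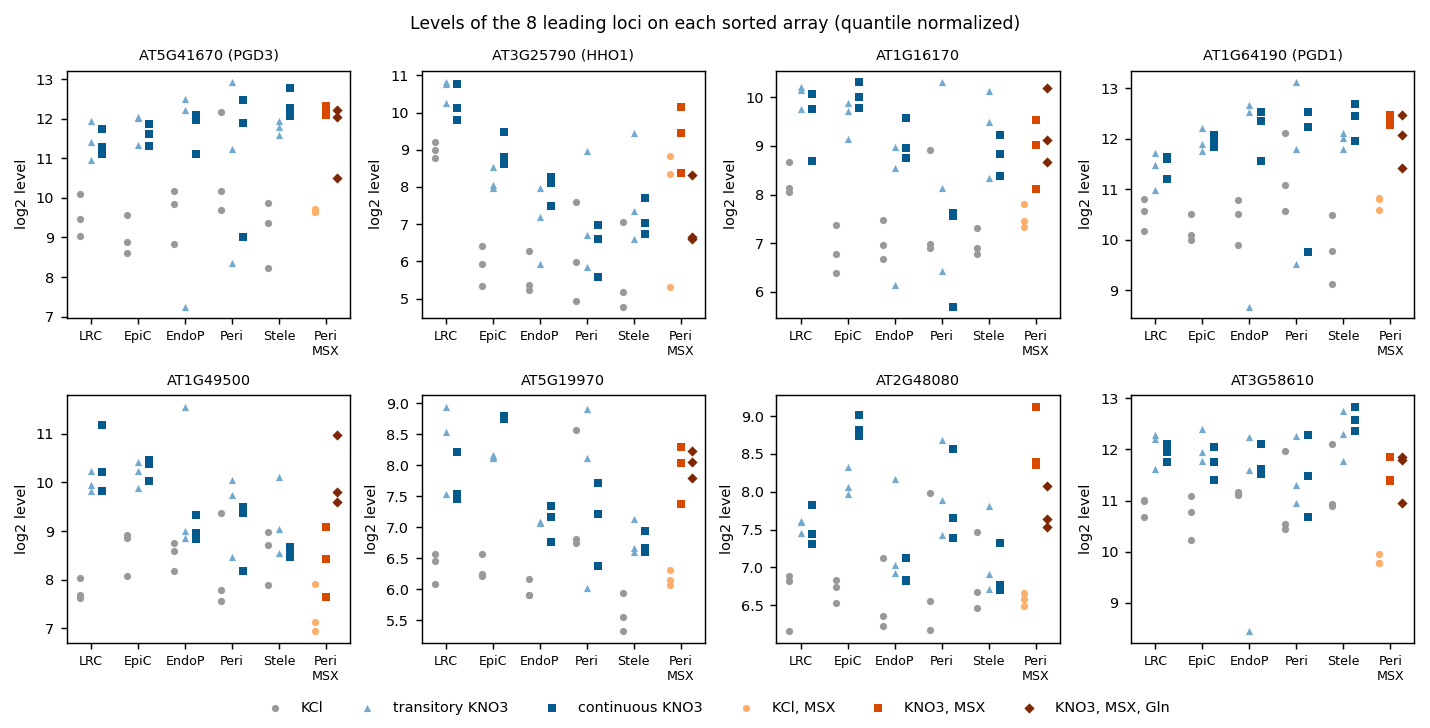
Log2 level (y axis, quantile normalized) of the 8 leading loci on each sorted array, by population (x axis) with Peri cells given MSX at the right, 3 arrays a group. For PGD3 the nitrate arrays lie above the KCl arrays in LRC, EpiC and Stele, 1 transitory EndoP array falls to 7.25, and the Peri groups overlap.

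Complete separation of the 6 nitrate from the 3 KCl arrays was found for 11 of the 100 loci in LRC, 13 in EpiC, 7 in EndoP, 16 in Peri and 9 in Stele. Among the candidates it was found in 0.679%, 1.16%, 0.972%, 8.58% and 2.2%. The choice of the loci used these arrays, so nothing is read from the difference. In 69 loci no population showed it, in 15 it held in 1 population, in 9 in 2, in 5 in 3 and in 2 in 4, and no locus had it in all 5. The loci with 4 were AT5G19970 and AT2G43760, and those with 3 were AT5G41670, AT1G16170, AT1G64190, AT1G49500 and AT1G72220. AT2G43760, at rank 17 with a mean difference of 0.61, had small but even differences, from 0.25 in Peri to 0.90 in EndoP. Its KCl arrays read 7.28, 7.37 and 7.16 in EndoP and 7.29, 7.25 and 7.30 in Stele, and its nitrate arrays 7.67 to 9.37 and 7.45 to 8.20. AT1G72220, at rank 14 with 0.64, was apart in LRC, EpiC and Peri, and differed by only 0.04 in EndoP and 0.03 in Stele.

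Ranks 9 to 20 had mean differences of 0.59 to 0.70. They were AT1G77830 (0.70), AT3G45360 (0.70), AT1G55030 (0.69), AT5G37330 (0.65), AT2G07140 (0.64), AT1G72220 (0.64), AT3G15630 (0.62), AT2G27270 (0.61), AT2G43760 (0.61), AT2G16660 (0.60), AT3G45940 (0.59) and AT1G44790 (0.59). The probe set of AT2G07140 is of a kind that may bind other transcripts. AT3G45360, a pseudogene, read between 0.46 and 5.52 on the sorted arrays and passed the filter on low values in neither labelling protocol. AT2G16660 and AT2G27270 had their largest differences in LRC, at 1.46 and 1.44, and in AT2G27270 LRC KCl replicate 1 read 3.798, far below the 7.02 and 6.29 of the others. AT5G37330, also a pseudogene, and AT3G45940 had theirs in Peri, at 1.70 and 1.62.

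AT1G77830 shows how the arrays of such a locus were spread. In LRC KCl read 7.04, 7.06 and 6.32, transitory nitrate 6.84, 7.14 and 7.07, and continuous nitrate 9.56, 6.88 and 7.79. In EndoP KCl read 6.98, 7.03 and 6.87, and the nitrate arrays other than transitory replicate 1 lay at 6.65 to 7.33, while that array read 9.78. The differences of 0.74 and 0.46 in these populations thus held 1 high array each, LRC continuous replicate 1 and EndoP transitory replicate 1. In Peri, by contrast, KCl read 6.64, 6.93 and 7.07 and all 6 nitrate arrays lay higher, at 7.65 to 9.66.

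The same arrays recurred across the 92 loci below rank 8. EndoP transitory replicate 1 held the highest of the 45 values of the rule for 55 of the 92, Peri continuous replicate 3 for 14 and LRC continuous replicate 1 for 8. Relative to the candidates, with each locus set against its own median over the sorted arrays, their median level was 1.83 in the first of these arrays, 1.48 in the second and 1.67 in the third, and between -0.39 and 0.97 in all other sorted arrays. The 8 leading loci stood in the opposite place in 2 of these 3 arrays, at -2.27 and -1.46, and at 0.45 in LRC continuous replicate 1. The choice of the loci used these arrays. How often each array held the highest value over all candidates was not counted, so nothing is read from the counts.

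**Figure D3:**
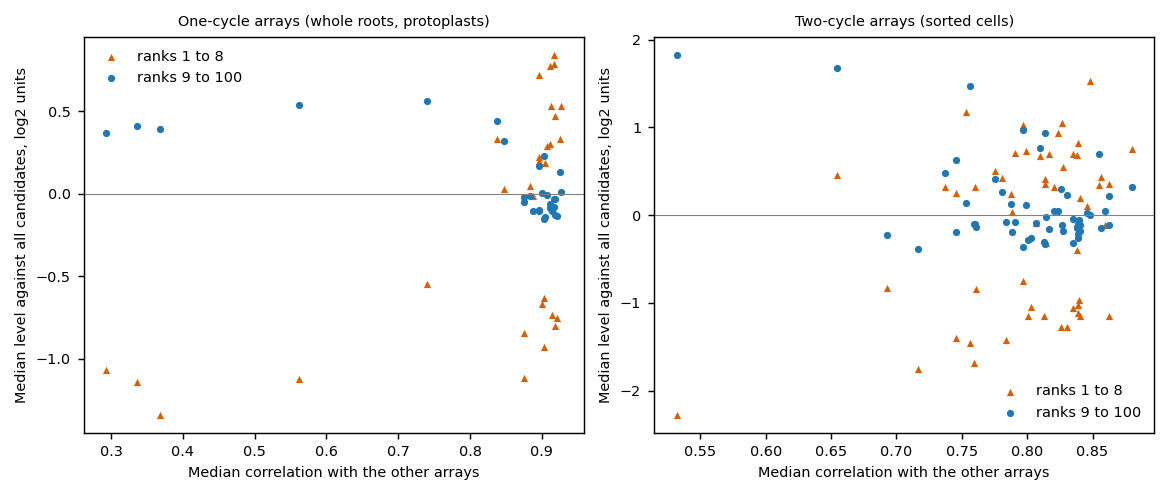
Median level of ranks 1 to 8 and of ranks 9 to 100, relative to all candidates in log2 units (y axis), against each array's median correlation with the other arrays of its labelling protocol (x axis), for 30 one-cycle and 54 two-cycle arrays. In the 4 one-cycle arrays of lowest correlation ranks 9 to 100 lie at 0.37 to 0.54, and in the lowest two-cycle array at 1.83, where ranks 1 to 8 lie at -2.27.

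This pattern could be looked at in arrays that played no part in the choice. In the 4 one-cycle arrays that stood apart, 3 of them KCl arrays, the 92 loci stood 0.37 to 0.54 above the candidates, and in the other 26 arrays between -0.16 and 0.57, with a median of -0.04. Of the 92, 86 (93.5%) had a higher mean in those 4 arrays than in the other 26, against 70.4% of the candidates, with a median difference of 0.93 against 0.53. Of the 8 leading loci 1 was higher, and their median difference was -0.66. Across the 30 one-cycle arrays, which share a labelling protocol, the relative level of the 92 loci correlated with an array's median correlation at r = -0.70 and rho = -0.54. Across the 26 without the arrays apart it did so at r = -0.77 and rho = -0.31. Among these 26, incubated roots in continuous KNO3, replicate 1, had both the lowest median correlation, 0.740, and the highest relative level, 0.565. The r without that array is not given. Across the 54 sorted arrays, the arrays of the rule included, r was -0.51 and rho -0.12, and in the 9 sorted arrays with MSX, which the rule did not use, r was 0.26 and rho 0.48. These correlations are descriptions. The part of array quality in the differences of these loci was not tested. Without EndoP transitory replicate 1, 69 of the 100 loci kept a difference above 0 in EndoP and 65 were again chosen by the rule, all 8 leading loci among them.

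**Figure D4:**
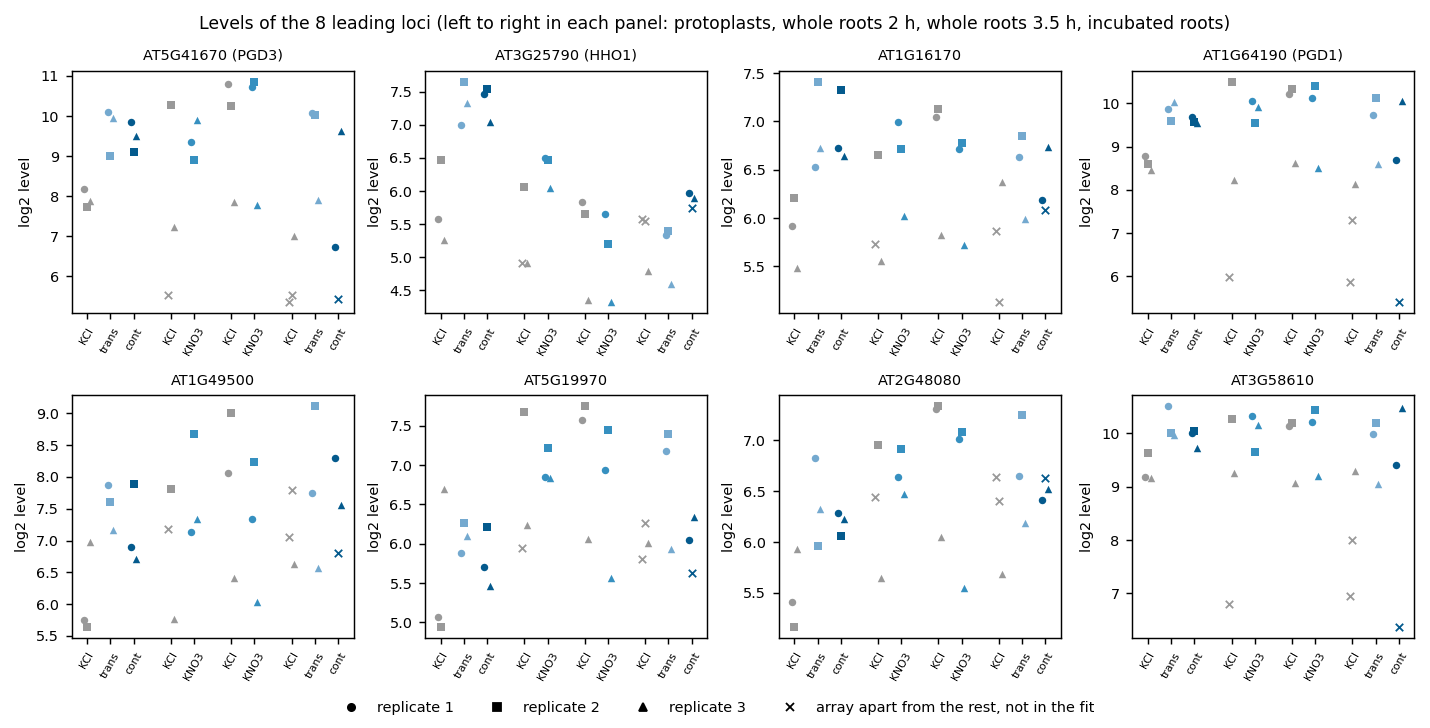
Log2 level (y axis, as deposited) of the 8 leading loci on each one-cycle array, by sample type and treatment (x axis), with 1 symbol for each replicate number and crosses for the 4 arrays left out of the fits. In protoplasts the PGD3 KCl arrays (7.74 to 8.19) lie under the nitrate arrays (8.99 to 10.10), and in whole roots at 3.5 h replicate 3 is low in both treatments.

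Unsorted protoplasts, digested like the sorted cells but neither sorted nor amplified in 2 cycles, asked whether the loci differ outside the arrays that chose them. In AT3G25790 (HHO1) KCl read 5.58, 6.46 and 5.26, transitory nitrate 6.995, 7.65 and 7.33, and continuous nitrate 7.47, 7.53 and 7.04, a difference of 1.57 (SE 0.34). In AT5G41670 (PGD3) KCl read 8.19, 7.74 and 7.89, transitory nitrate 10.10, 8.99 and 9.95, and continuous nitrate 9.85, 9.11 and 9.50, a difference of 1.64 (SE 0.79). All nitrate arrays of both genes lay above all KCl arrays. So did those of AT1G64190 (PGD1), at 1.10 (SE 0.48), AT1G16170, at 1.02 (SE 0.34), AT2G48080, at 0.78 (SE 0.35), and AT3G58610, at 0.72 (SE 0.34). In AT1G49500 KCl replicate 3, at 6.98, lay above continuous replicates 1 and 3, at 6.89 and 6.71, and in AT5G19970 KCl replicate 3, at 6.70, lay above every nitrate array.

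By limma, with p adjusted for all 17152 probe sets tested, 0 of the 87 loci that passed the filter on low values were called in protoplasts at an adjusted p of 0.05, and 0 of all probe sets (0%). The smallest adjusted p among the loci was 0.377, for AT3G25790. At an unadjusted p under 0.05, 12 of the 87 were higher, 6 of the 8 leading loci among them, against 575 of 17152 (3.35%), and none was lower. Complete separation in that direction was found for 8 of 87 against 1.32% of all probe sets, 6 of the 8 being leading loci and the others AT2G43760 and AT2G34340. AT2G43760 read 7.48, 7.01 and 7.21 in KCl and 7.54 to 8.03 in nitrate, a difference of 0.57 (SE 0.23). The median over the 87 was 0.07 and over all probe sets 0.01, and the former ran from -0.07 without transitory replicate 1 to 0.22 without KCl replicate 3. Without KCl replicate 2 AT3G25790 and AT3G45530 passed (limma adjusted p = 0.0287 each), beside 44 higher and 22 lower of the 17152 probe sets.

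In whole roots frozen at once, the leading loci varied between arrays of one treatment as much as between treatments. At 2 h AT5G41670 (PGD3) read 10.27 and 7.23 in the 2 KCl arrays kept and 9.36, 8.91 and 9.91 in KNO3. AT1G64190 (PGD1) likewise read 10.50 and 8.23 in KCl and 10.05, 9.55 and 9.90 in KNO3. In both genes the KCl arrays enclosed the KNO3 arrays. AT3G25790 (HHO1) read 6.06 and 4.92 in KCl and 6.50, 6.47 and 6.04 in KNO3, a difference of 0.85 (SE 0.44). All 8 leading loci had a difference above 0, from 0.02 to 0.93, and in none were the arrays apart.

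At 3.5 h the arrays of AT5G41670 followed the replicate number: KCl read 10.79, 10.25 and 7.84 and KNO3 10.71, 10.86 and 7.78. AT1G64190 read 10.21, 10.32 and 8.62 in KCl and 10.11, 10.39 and 8.51 in KNO3. AT1G49500 read 8.07, 9.01 and 6.40 in KCl and 7.34, 8.24 and 6.04 in KNO3. In each of these, replicate 3 was low in both treatments. The differences of the 8 leading loci ran from -0.62 in AT1G49500 to 0.16 in AT5G41670, with 2 above 0 and a median of -0.24. Since arrays of equal number deviated together at this time, the differences were also taken within the 3 pairs. In 5 of the 8 loci KNO3 was lower in every pair: AT1G49500 (-0.73, -0.77 and -0.37), AT5G19970 (-0.63, -0.29 and -0.49), AT2G48080 (-0.30, -0.25 and -0.50), AT1G16170 (-0.33, -0.35 and -0.11) and AT3G25790 (-0.19, -0.46 and -0.03). AT3G58610 was higher in every pair, by 0.07, 0.24 and 0.14, and both dehydrogenase genes were mixed. The share of all probe sets lower in every pair was not counted, so nothing is read from the count of 5. With the replicate block 0 loci passed in limma, and the smallest adjusted p among the 87 was 0.0779, in the fit of these 6 arrays alone.

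In the limma fit without the replicate block 0 of the 87 loci passed at either time (0% of all probe sets at each). None reached an unadjusted p under 0.05 in that fit. Of the 17152 probe sets 214 did at 2 h (higher in 0.542%) and 154 at 3.5 h (higher in 0.274%). That fit ignores the pairs at 3.5 h. The counts at an unadjusted p, here and in the other tests of whole roots, are given for it alone. The median over the 87 was 0.12 at 2 h and -0.03 at 3.5 h, against -0.002 and 0.02 over all probe sets. The sign of neither median was stable. At 2 h it was -0.21 with all one-cycle arrays, -0.05 without KCl replicate 3 and 0.26 without KCl replicate 2. At 3.5 h it was 0.01 without KCl replicate 2, 0.02 without KNO3 replicate 3 and -0.06 without KNO3 replicate 2. At 2 h 15 loci, none of them leading, had all KNO3 arrays above both KCl arrays, against 7.19% of all probe sets, and none had them all below, against 5.9%. At 3.5 h the figures were 2 above, against 7.26%, and 5 below, against 6.3%. The test of the nitrate effect at 3.5 h against that at 2 h called 0 loci and 0 probe sets (0%). All 8 leading loci lay below 0 there, from -1.55 (SE 1.07) in AT1G49500 to -0.14 (SE 0.59) in AT3G58610, and 1 of the 87, AT1G16000 at -0.78 (SE 0.32), had an unadjusted p under 0.05 against 371 of 17152. The mean effect over both times and protoplasts called 0 as well (0% of all), with 2 of the 87 at an unadjusted p under 0.05 against 254 of 17152. For AT3G25790 that mean was 0.73 (SE 0.23), with an adjusted p close to 1.

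Incubated roots gave a single usable KCl array, replicate 3, assumed to vary like the other groups. There AT5G41670 read 6.999 in KCl, 10.08, 10.02 and 7.89 in transitory nitrate and 6.74 and 9.63 in continuous nitrate. AT1G49500 read 6.63 in KCl, 7.75, 9.11 and 6.57 in transitory and 8.29 and 7.56 in continuous nitrate. In both, 1 nitrate array lay below the KCl array. By limma 0 of the 87 loci passed, and 0 of all probe sets (0%). At an unadjusted p under 0.05, 6 loci were higher and none lower, against 669 higher (3.9%) over all probe sets. The median of all probe sets was itself shifted, at 0.11, beside 0.31 for the 87 loci. With all one-cycle arrays the latter turned to -0.24, and without continuous replicate 1 it was 0.16.

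**Figure D5:**
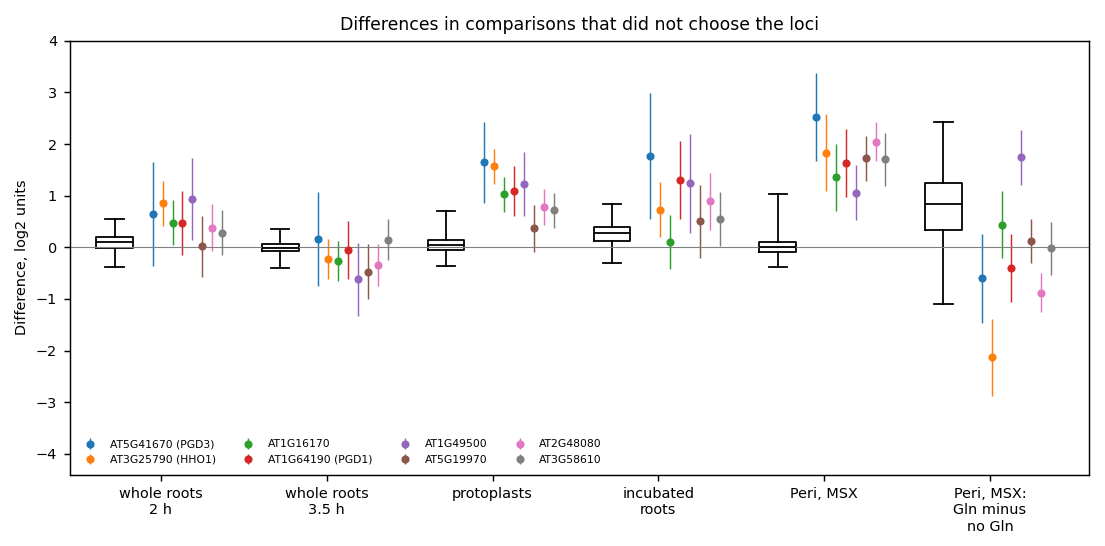
Differences in log2 units (y axis) in 6 comparisons (x axis) whose arrays did not choose the loci. Points are the 8 leading loci with limma's standard errors, and boxes show the quartiles, median and full range of ranks 9 to 100 that passed the filter, 79 in roots and protoplasts and 87 in Peri. The leading loci lie from 1.05 to 2.52 in Peri with MSX, and ranks 9 to 100 have a median of 0.83 for glutamine.

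In Peri with MSX all 8 leading loci lay higher in KNO3 than in KCl. AT5G41670 (PGD3) read 9.71, 9.64 and 9.64 in KCl with MSX and 12.08, 12.33 and 12.16 in KNO3 with MSX, a difference of 2.52 (SE 0.86). AT1G64190 (PGD1) read 10.59, 10.80 and 10.83, and 12.26, 12.46 and 12.42, a difference of 1.64 (SE 0.66). Each group spanned less than 0.3 units, and the groups lay far apart, while the standard errors carry the spread of all 54 sorted arrays. AT2G48080 read 6.49, 6.66 and 6.58, and 9.12, 8.39 and 8.35. Its difference of 2.04 (SE 0.38) was the only call among 19254 probe sets (0.00519%), with a limma adjusted p of 0.0494. AT5G19970 read 6.15, 6.07 and 6.31, and 8.04, 7.37 and 8.29, a difference of 1.72 (SE 0.43, limma adjusted p = 0.408). AT3G58610 read 9.79, 9.96 and 9.77, and 11.40, 11.38 and 11.86, a difference of 1.71 (SE 0.51). In AT1G16170 the groups were also apart, at 7.33 to 7.80 and 8.12 to 9.53. In AT3G25790 (HHO1) they overlapped, KCl with MSX reading 8.83, 8.34 and 5.32 and KNO3 with MSX 10.16, 9.45 and 8.38, and in AT1G49500 they also overlapped, with a difference of 1.05.

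Of the 8 leading loci 7 reached an unadjusted p under 0.05, where 100 of 19254 probe sets (0.519%) were higher. Of the 87 other loci tested, 0 reached an unadjusted p under 0.05, and their median was 0.01 beside -0.04 over all probe sets. Complete separation was found upward in 6 of the 8 and in 4 of the 87, against 2.62%, and downward in 0 and 1, against 5.11%. The call of AT2G48080 held in 3 of 13 alternatives, with adjusted p from 0.0208 to 0.560, and was lost on leaving out any of the 6 arrays. With only the 6 compared arrays in the fit, AT5G41670 (limma adjusted p = 0.0116) and AT1G64190 (0.0276) passed and AT2G48080 did not (0.118). That fit called 9 of the 19254 probe sets, all of them higher. The level of GAPDH at its 3' less that at its 5' probe set, a sign of RNA quality, was 3.16 to 3.84 in KNO3 with MSX and 4.05 to 4.40 in KCl with MSX, and its part in these differences was not tested. AT5G65660, outside the rule, read 9.14, 10.40 and 9.71 against 10.36, 9.52 and 10.48 and did not separate.

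Glutamine, added to KNO3 and MSX, left the leading loci in different places. AT3G25790 (HHO1) read 8.32, 6.61 and 6.65 with glutamine, all below the 10.16, 9.45 and 8.38 without it, a difference of -2.13 (SE 0.74, limma adjusted p = 0.169). AT2G48080 read 7.53, 8.07 and 7.64, all below its values without glutamine, a difference of -0.88 (SE 0.38, 0.302). AT1G49500 moved to the other side, reading 10.97, 9.60 and 9.81 against 7.64, 8.42 and 9.08, a difference of 1.75 (SE 0.53, limma adjusted p = 0.107). Without EndoP transitory replicate 1 in the fit it passed (limma adjusted p = 0.0460). AT5G41670, AT1G64190, AT1G16170, AT5G19970 and AT3G58610 overlapped between the groups, with differences of -0.60 to 0.44.

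The locus called for glutamine with all sorted arrays in the fit was AT2G22100. It ranked 60 and read 9.54, 9.004 and 10.05 with glutamine and 7.81, 7.42 and 7.98 without, and rose by 1.79 (SE 0.41, limma adjusted p = 0.0229). Over all probe sets 70 of 19254 (0.364%) were higher and 62 (0.322%) lower. Of the 87 tested loci below rank 8, 78 had a difference above 0, with a median of 0.83 beside -0.02 over all probe sets, and 39 were higher at an unadjusted p under 0.05 against 6.26% of all probe sets. All arrays with glutamine lay above all without it in 34 of these 87 and below in 4, against 8.4% and 9.57% of all probe sets. Their level moved with single arrays. Relative to the candidates it was 0.94 and 0.69 in glutamine replicates 1 and 3 and -0.04 in replicate 2, and -0.26 to -0.16 in the 3 arrays without glutamine. AT5G37330, for example, read 9.04, 6.38 and 8.74 with glutamine and 5.28, 5.99 and 5.62 without, a difference of 2.42 (SE 0.72, adjusted p = 0.0966). Between 3' and 5' probe sets GAPDH differed by 3.97 to 5.33 with glutamine and by 3.16 to 3.84 without it, so that these arrays were apart as well, and the part of RNA quality was not tested. Without glutamine replicate 2, 12 loci passed, beside 123 higher and 121 lower of the 19254 probe sets. Without any 1 of the other 5 arrays 0 or 1 passed. The call of AT2G22100 held in 6 of 13 alternatives, with adjusted p from 0.0126 to 0.579. The comparison shares its arrays without glutamine with the preceding one.

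Transitory and continuous treatment, whose mean was used by the rule but whose difference was not, were compared over the 5 sorted populations. The leading loci differed by -0.26 (SE 0.24) in AT1G49500 to 0.34 (SE 0.38) in AT5G41670. By limma 0 of the 95 loci that passed the filter were called, and 0 of all probe sets (0%), and at an unadjusted p under 0.05 stood 1 of the 95, AT4G31890 at 0.42 (SE 0.18), beside 183 of 19254. The median was 0.08 over the 95 and 0.003 over all.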

How the data were processed

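Expression was measured on Affymetrix ATH1 arrays, which give each probe set 1 value, so precision is limited by the number of arrays, 3 in each group. Per the labels' protocols, whole roots and protoplasts were labelled in 1 cycle and sorted cells in 2 cycles. The deposited values are log2 signals, the scale being read from the values, and the software and normalization behind them are not given in the sources used here. The members, the lists and the tests were chosen with earlier results of these data known.

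Two-cycle values were quantile normalized, and one-cycle values were used as deposited, without arrays whose median correlation with the rest was under 0.7. Probe sets above the 40th percentile in at least 3 arrays were tested, 17152 in one-cycle and 19254 in two-cycle arrays. Linear models with 1 coefficient for each group were fitted with limma 3.58.1 (eBayes with an intensity trend) in R 4.3.3, two-sided, with Benjamini-Hochberg adjustment at 0.05. SE is limma's moderated standard error. An exact permutation test of 3 against 3 arrays cannot go below p = 0.1. The fits were also run on simulated data, whose outcome is not given here, so nothing is read from it. Figures were drawn with matplotlib 3.10.9.

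Named are the proposed markers, ranks 1 to 20, members called in a test, members of the pathway lists and the loci on either side of rank 100. Loci outside this rule were named after their values were seen. PGD1, PGD3 and HHO1 are names in common use for loci the annotation leaves unnamed. The planned grouping by product name could not be made, because the RefSeq table gives no product names. Same-numbered arrays of whole roots at 3.5 h deviated together (correlations 0.838, 0.720 and 0.734), so their numbers were taken as pairs, and in the other comparisons of 2 treatments not every pair exceeded 0.1. Alternatives changed the normalization, filter, arrays, samples in the fit and replicate block, and left out each array in turn.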

Additional observations from a re-analysis of the deposited data

How the results depend on the processing

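Both the members and the calls depended on the settings. Of the 100 loci, 38 were again chosen with values as deposited, 65 without EndoP transitory replicate 1, 52 also without LRC continuous replicate 1, 51 with transitory arrays alone and 55 with continuous arrays alone. Leaving out each of the 45 arrays in turn, 48 to 99 were chosen again, with at least 4 of the 8 leading loci. The lowest values came without EpiC in KCl, replicates 3 (48) and 2 (53), and the fewest leading loci remained without Peri KCl replicate 2 or Peri transitory replicate 2. In protoplasts 0 loci passed, and 1 with the replicate block (AT3G25790, limma adjusted p = 0.0302), the only call over all probe sets. With the block and only the compared arrays 0 passed (smallest limma adjusted p 0.0521), beside 2 over all. Without 1 array 0 to 2 passed, beside 0 to 66 over all. Deviations of same-numbered protoplast arrays from their group means correlated at 0.206, 0.018 and -0.171, and whether these arrays share a batch was not tested. In Peri with MSX 1 passed, and 0 with values as deposited, with no filter or without any 1 array. With only the compared arrays 2 passed, beside 9 over all probe sets, and with the replicate block added 2, beside 10. As deposited, the median of all probe sets was 0.15. For glutamine 1 passed, and 0 as deposited or with only the compared arrays (also with the block). Without EndoP transitory replicate 1 the count was 5, beside 108 higher and 108 lower over all probe sets. With the replicate block it was 2, beside 79 and 87. Without 1 array 0 to 12 passed, beside 15 to 244 over all. The other comparisons had 0 in each alternative run. The replicate block changed no other count of loci, and at 3.5 h, where numbers pair the arrays, it left 0. The cause of these changes was not tested. Scan day as a block was not run, since no dates were given, and incubated roots could not be fitted without KCl replicate 3. The number of arrays limits what small differences could be called. The block with only the compared arrays, a limit of 0.8 on correlation, and the members without the 2 lowest or single arrays were added after the data were seen.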
